A study of Mus musculus with 6 samples.

Results

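The genes described here are those of the glucocorticoid response and of corticoid signalling in the mouse hippocampus: corticoid receptors, the enzymes that activate or inactivate corticosterone, receptors for the stress peptide Crh, and genes that glucocorticoids induce. They were taken by gene symbol from a table of 23361 genes, and all 31 were in it. The libraries came from whole hippocampus of 3 mice of genotype Tet1Δe4-/-, called Tet1-deficient below, and of 3 Tet1+/+ mice, called wild-type. Tet1 encodes a dioxygenase that oxidises methylated cytosine in DNA, and Δe4 names an allele without exon 4. All 6 mice received electroconvulsive shock, which evoked a seizure, and the tissue was taken 1.5 to 2 hours later. Age, strain and the time of day were not given in the sources used here, and unshocked mice were not analysed here.

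Corticosterone, the main glucocorticoid of mice, is released by the adrenal gland when the hypothalamic peptide Crh drives the pituitary. In the hippocampus it binds 2 related nuclear receptors, the mineralocorticoid receptor with high affinity and the glucocorticoid receptor with lower affinity. The hormone-bound receptors act on transcription at DNA elements near their target genes, and many of these targets are expressed in astrocytes and other glia as well as in neurons. A seizure is itself a strong stimulus for corticosterone release.

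Values are gene-level FPKM, in which fragment numbers are divided by transcript length and by the mapped total of the library, and the number of reads behind them is unknown. Values by library are given for replicates 1, 2 and 3 in that order, wild-type first. Tet1 itself measured 0.977, 0.718 and 0.897 FPKM in the wild-type libraries and 0.740, 0.685 and 0.638 FPKM in the Tet1-deficient libraries, so the genotypes overlapped, and a value over all exons does not check the loss of 1 exon. Replicate 1 of wild-type and replicate 1 of Tet1-deficient hippocampus stood apart from the other 4 libraries on a first principal component that held 53.3% of the variance. Wild-type replicate 1, the library with an f in its title code, was also the one with Xist at 63.5 FPKM, against 0.0389 to 0.202 FPKM in the other 5. The Y-linked gene Ddx3y was at 0.0381 FPKM there and at 16.7 to 35.2 FPKM in the other 5. By these genes the wild-type group held 1 female and the Tet1-deficient group none, so the genotypes differed in sex make-up. All 8 neuronal and all 7 hippocampal subfield markers had a mean of at least 1 FPKM, with Camk2a at 1142 to 1415 FPKM. The astrocyte, oligodendrocyte, microglia and endothelial markers all reached that level too, so reaching it does not single out hippocampus. The 7 choroid plexus markers summed to between 7.52 and 303 FPKM, so their amount was uneven between libraries.

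Of the 31 genes, 28 had a mean of at least 1 FPKM and entered the test of 12533 genes (limma on log2(FPKM + 1), two-sided, Benjamini-Hochberg adjustment, threshold 0.05). None of these 28 passed, where 0.0319% of all tested genes did, and their adjusted p was 1.00 throughout. At an unadjusted limma p under 0.05 there were 2, the metallothionein genes Mt1 and Mt2, against 1.36% of all tested genes. The same 2 genes were the ones whose genotypes did not overlap, against 4.13% of all tested genes. The log2 difference, Tet1-deficient minus wild-type here and below, was above 0 for 21 of the 28 genes and for 52.9% of all tested genes. The median log2 difference was 0.11 over the 28 genes and 0.0055 over all tested genes. The former was 0.04 without wild-type replicate 1, 0.05 without Tet1-deficient replicate 2 and 0.07 without Tet1-deficient replicate 3. The differences of single genes lay between −0.17 for Crhbp and 0.33 for Mt2, and their median SE was 0.14.

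**Figure D1:**
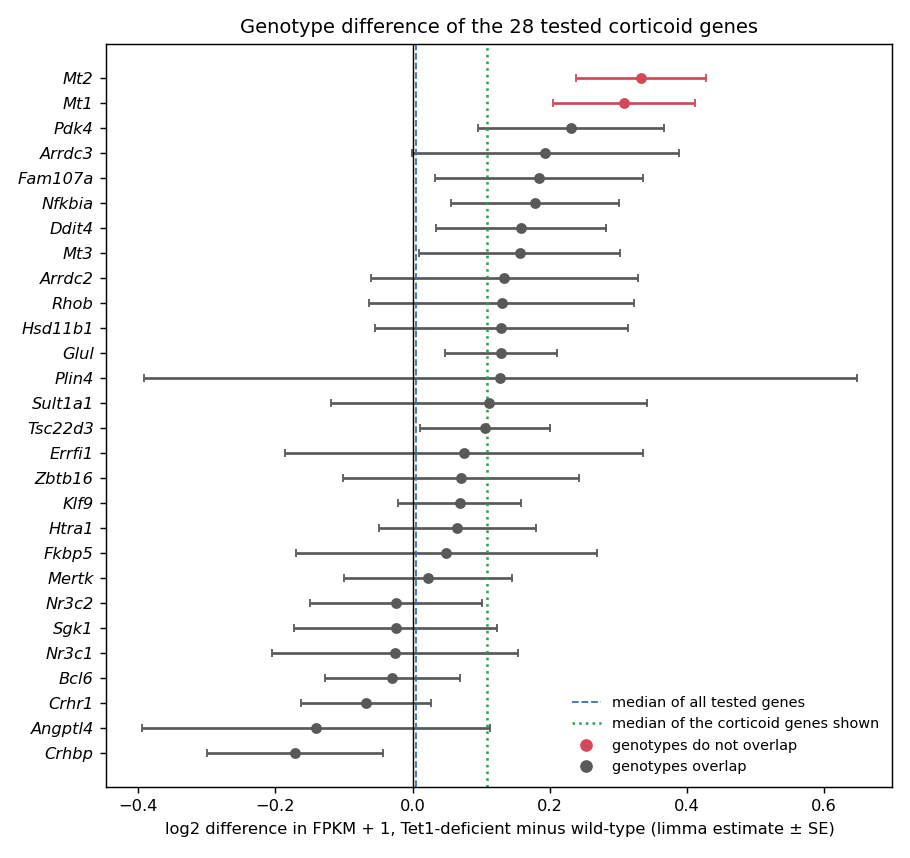
Log2 difference between genotypes for the 28 tested corticoid genes (horizontal axis, Tet1-deficient minus wild-type, limma estimate ± SE from 3 against 3 libraries), ordered by size. The points run from −0.17 for Crhbp to 0.33 for Mt2, and Mt1 and Mt2 are the ones without overlap between genotypes; the dashed line is the median of all tested genes and the dotted line that of the genes shown.

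The mineralocorticoid receptor gene Nr3c2 was the more abundant of the receptor genes. It measured 39.7, 33.2 and 32.6 FPKM across wild-type libraries and 39.4, 32.5 and 31.8 FPKM across Tet1-deficient ones. The glucocorticoid receptor gene Nr3c1 measured 11.96, 8.62 and 10.2 FPKM across wild-type libraries and 12.95, 8.53 and 8.96 FPKM across Tet1-deficient ones. Both receptors were highest within each genotype in replicate 1, and the genotypes overlapped. The ratio of Nr3c2 to Nr3c1 within a library lay between 3.20 and 3.85 across wild-type libraries and between 3.04 and 3.81 in Tet1-deficient hippocampus. The log2 difference was −0.02 (SE 0.13) for Nr3c2 and −0.03 (SE 0.18) for Nr3c1, with unadjusted limma p-values of 0.851 and 0.892. The annotation places exons of Gm10649 on the strand opposite Nr3c2.

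Of the enzymes that interconvert active and inactive corticosterone, Hsd11b1, which regenerates the active hormone, was expressed and Hsd11b2, which inactivates it, was near 0. Hsd11b1 measured 34.7, 31.04 and 25.03 FPKM across wild-type libraries and 42.1, 28.2 and 30.0 FPKM across Tet1-deficient ones. Tet1-deficient replicate 1 was the highest, and the others overlapped (log2 difference 0.13, SE 0.18, unadjusted limma p 0.505). Hsd11b2 measured 0.0144, 0.0355 and 0.0132 FPKM in wild-type libraries and 0.0421 FPKM in Tet1-deficient replicate 2, and it was listed at 0 in the other Tet1-deficient libraries. An exact two-sided permutation test on its log2(FPKM + 1) values gave p = 0.6, where 0.1 is the smallest p that 3 against 3 libraries allow.

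The genes of Crh signalling had lower means in Tet1-deficient hippocampus, and their genotypes overlapped. Crhbp, whose product binds Crh and withholds it from its receptors, measured 9.81, 12.3 and 12.1 FPKM across wild-type libraries and 10.1, 11.2 and 8.71 FPKM across Tet1-deficient ones. Wild-type replicate 1 lay below both Tet1-deficient replicates 1 and 2, and the log2 difference was −0.17 (SE 0.13, unadjusted limma p 0.224). Crhr1, the main Crh receptor of the forebrain, measured 2.56, 2.66 and 3.04 FPKM and 2.43, 2.54 and 2.77 FPKM (log2 difference −0.07, SE 0.09, unadjusted limma p 0.497). Crhr2, the receptor that also binds the urocortins, was scarcer, with 0.380, 0.213 and 0.403 FPKM across wild-type libraries and 0.213, 0.337 and 0.290 FPKM across Tet1-deficient ones. Its exact two-sided permutation p was 0.6. Within a library Crhr1 exceeded Crhr2 by 6.74 to 12.5 times across wild-type libraries and by 7.54 to 11.4 times in Tet1-deficient hippocampus.

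**Figure D2:**
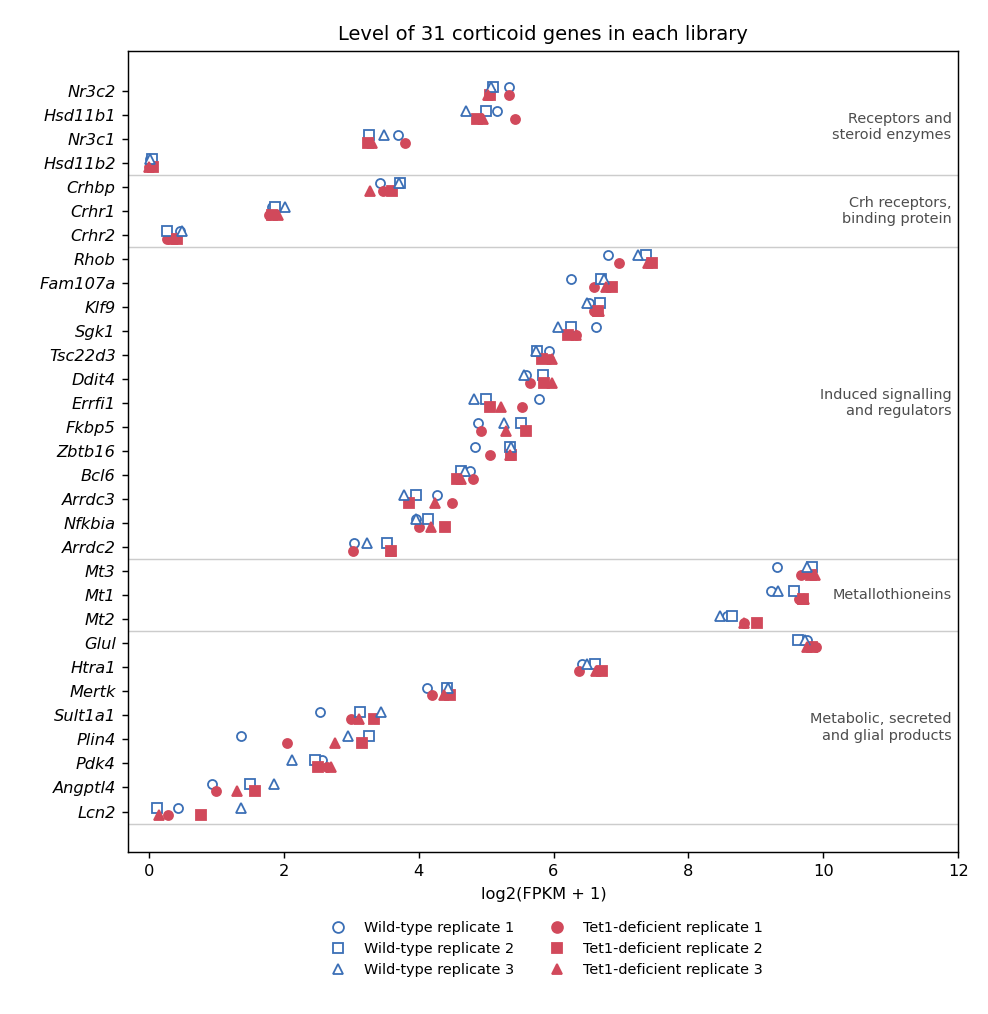
Level of each of the 31 corticoid genes as log2(FPKM + 1) (horizontal axis) in each library, grouped by role; open blue symbols are wild-type, filled red symbols Tet1-deficient, and the symbol shape gives the replicate. Glul, Mt3 and Mt1 are the most abundant, Hsd11b2 lies at or near 0, and Plin4 and Lcn2 have the widest spread between libraries.

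The widely used reporters of glucocorticoid receptor activity were expressed in every library, with no genotype difference beyond the replicate spread. Fkbp5, a cochaperone that lowers the affinity of the glucocorticoid receptor for hormone, measured 28.3, 44.9 and 37.5 FPKM across wild-type libraries and 29.3, 47.3 and 38.2 FPKM across Tet1-deficient ones. Its lowest libraries were replicate 1 of each genotype, and within each genotype the highest exceeded the lowest by more than the genotype means differed (log2 difference 0.05, SE 0.22, unadjusted limma p 0.830). Sgk1, a kinase that regulates ion channels and transporters, measured 97.6, 75.8 and 66.2 FPKM across wild-type libraries and 79.7, 73.1 and 79.8 FPKM across Tet1-deficient ones. Wild-type replicates held both its highest and its lowest value, and the log2 difference was −0.02 (SE 0.15). Tsc22d3, which encodes the leucine zipper protein GILZ, measured 60.2, 52.8 and 52.6 FPKM and 60.2, 56.1 and 61.8 FPKM. Wild-type replicate 1 was level with Tet1-deficient replicate 1, and the other wild-type libraries lay below all Tet1-deficient ones (log2 difference 0.11, SE 0.10, unadjusted limma p 0.305).

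Among transcription regulators, Zbtb16, a zinc finger repressor strongly induced by glucocorticoids in many tissues, measured 27.6, 39.9 and 40.4 FPKM across wild-type libraries and 32.3, 40.4 and 39.7 FPKM across Tet1-deficient ones. Its order among libraries was like that of Fkbp5 in one respect, since replicate 1 of each genotype was lowest. Klf9, a Krüppel-like factor, varied little, from 89.5 to 103 FPKM across wild-type libraries and from 95.7 to 101 FPKM in Tet1-deficient libraries. Bcl6, a repressor, ranged from 23.7 to 26.0 FPKM and from 22.6 to 26.9 FPKM. The annotation places exons of Gm37419 opposite Bcl6. Nfkbia, which encodes the inhibitor of NF-kappaB, measured 14.6, 16.6 and 14.6 FPKM across wild-type libraries and 15.1, 20.02 and 17.2 FPKM across Tet1-deficient ones. Tet1-deficient replicate 1 lay below wild-type replicate 2, so the genotypes overlapped (log2 difference 0.18, SE 0.12, unadjusted limma p 0.188). The log2 differences of Zbtb16, Klf9 and Bcl6 were 0.07, 0.07 and −0.03.

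The signalling genes of the group were mostly at higher means in Tet1-deficient hippocampus and overlapped between genotypes. Ddit4, an inhibitor of the growth kinase mTORC1, measured 47.4, 56.5 and 46.4 FPKM across wild-type libraries and 49.3, 57.0 and 61.8 FPKM across Tet1-deficient ones (log2 difference 0.16, SE 0.12). Fam107a, an actin-binding protein gene, measured 75.4, 103 and 106 FPKM and 96.5, 116 and 109 FPKM (log2 difference 0.18, SE 0.15), and wild-type replicate 1 was the lowest library. Without wild-type replicate 1 the log2 difference of Fam107a was 0.029. Rhob, a small GTPase gene, measured 111, 165 and 152 FPKM and 124, 176 and 167 FPKM, with replicate 1 lowest in each genotype (log2 difference 0.13, SE 0.19). Errfi1, a feedback inhibitor of the EGF receptor, went the other way among libraries: replicate 1 was highest in each genotype, with 53.9 against 30.9 and 27.2 FPKM in wild-type and 45.5 against 32.2 and 36.4 FPKM in Tet1-deficient hippocampus. Its log2 difference was 0.08 (SE 0.26). The arrestin domain genes Arrdc2 and Arrdc3, of adaptor proteins for receptor traffic, had log2 differences of 0.13 (SE 0.19) and 0.19 (SE 0.19). That of Arrdc2 was 0.023 when wild-type replicate 1 was left out and 0.32 when replicate 1 of Tet1-deficient hippocampus was, its lowest and highest values with 1 library fewer. For Arrdc3 the lowest was 0.046, with replicate 1 of Tet1-deficient hippocampus left out, and the highest 0.37, with replicate 2 left out. Arrdc2 lay between 7.18 and 11.1 FPKM and Arrdc3 between 12.7 and 21.5 FPKM over the 6 libraries. Of the 13 induced signalling and regulator genes, 11 had a log2 difference above 0, against 52.9% of all tested genes, and the median of the 13 was 0.11. Of them 0 passed the limma threshold or an unadjusted limma p under 0.05. The shares of all tested genes that did were 0.0319% and 1.36%. Without wild-type replicate 1 the difference turned negative for Fkbp5, Zbtb16 and Rhob and positive for Sgk1 and Bcl6.

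Mt1 and Mt2 were the members with the clearest separation between genotypes. They encode small cysteine-rich proteins that bind zinc and copper, are made by astrocytes in the brain, and are induced by glucocorticoids and by metal ions. Mt2 measured 378, 399 and 351 FPKM across wild-type libraries and 453, 515 and 453 FPKM across Tet1-deficient ones. Every Tet1-deficient library exceeded every wild-type library, and the means were 376 ± 23.6 and 474 ± 35.7 FPKM (SD, n = 3), 26.1% apart. Mt1 measured 599.7, 755 and 644 FPKM across wild-type libraries and 797, 831 and 837 FPKM across Tet1-deficient ones. Its genotypes were also apart, with means of 666 ± 79.9 and 822 ± 21.6 FPKM (SD, n = 3), 23.4% apart. Mt3, the metallothionein that is mainly neural, measured 638, 905 and 862 FPKM across wild-type libraries and 813, 900 and 941 FPKM across Tet1-deficient ones, so its genotypes overlapped. Of 10 astrocyte markers 6 were higher, with a median log2 difference of 0.0057, and they summed to 1195 to 1378 FPKM across wild-type libraries and 1239 to 1415 FPKM across Tet1-deficient ones, so their sums overlapped. In whole tissue the number of cells of a type and the RNA per cell cannot be told apart.

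The log2 difference was 0.33 (SE 0.09, unadjusted limma p 0.00986) for Mt2, 0.31 (SE 0.10, unadjusted limma p 0.0211) for Mt1 and 0.16 (SE 0.15, unadjusted limma p 0.324) for Mt3, and none passed after adjustment over all genes. The exact two-sided permutation p was 0.1 for Mt1 and for Mt2, the smallest that 3 against 3 libraries allow, and 0.6 for Mt3. Non-overlap with higher Tet1-deficient values occurred in 1.91% of all tested genes, and an unadjusted limma p under 0.05 with higher values in 0.447%. By unadjusted p, Mt2 ranked 56 and Mt1 97 among the 12533 genes. In replicate 1 of each genotype, the libraries that stood apart, the difference was 0.26 for Mt2 and 0.41 for Mt1. In the other 4 libraries it was 0.37 and 0.26. Every Tet1-deficient value exceeded every wild-type value, so a positive difference on both sides of that split was given in advance and adds no support. Between the replicate 1 libraries sex differed together with genotype, since wild-type replicate 1 was the female by Xist and Ddx3y. With the split as a term the unadjusted limma p was 0.00369 for Mt2 and 0.00539 for Mt1, with adjusted p-values of 0.465 and 0.509. That term also raised the share of all tested genes with an unadjusted limma p under 0.05 from 1.36% to 6.77%. The split itself was taken from the first principal component of these same libraries. Leaving out any 1 library left log2 differences of 0.27 to 0.38 for Mt2 and 0.24 to 0.40 for Mt1. The unadjusted limma p of Mt2 was then 0.0126 to 0.0458, while that of Mt1 reached 0.0530 without wild-type replicate 1, 0.0687 without wild-type replicate 3, and 0.0607 and 0.0681 without Tet1-deficient replicates 2 and 3.

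**Figure D3:**
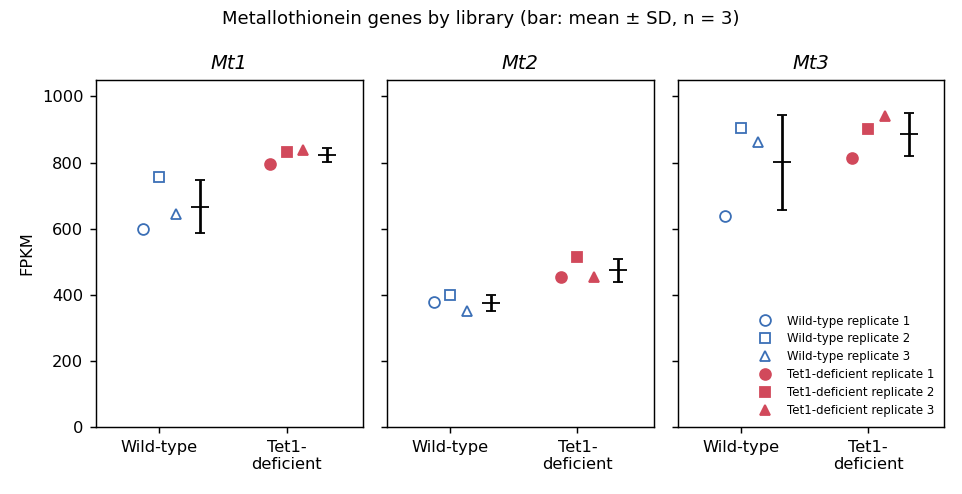
FPKM of Mt1, Mt2 and Mt3 (vertical axis, from 0) in each library by genotype, with the mean ± SD over 3 libraries beside the points. All Tet1-deficient points lie above all wild-type points for Mt1 and Mt2, while for Mt3 wild-type replicate 1 lies lowest at 638 FPKM and the other libraries overlap.

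Mt1 and Mt2 are neighbours on chromosome 8 (mm10). Mt2 occupies chr8:94172664-94173568 and Mt1 chr8:94179082-94180327, on the plus strand and 5513 bases apart, and Mt3 ends 18517 bases before Mt2. All are protein-coding. No other gene had a transcript that matched 80% or more of the longest transcript of any of the 31 genes with an identity of 95% or higher, and the longest alignment found between Mt1 and Mt2 transcripts spanned 92 bases at 82.6% identity. The annotation places exons of Gm45774 opposite Mt2, and without a stated strand setting the reads of 2 genes on opposite strands cannot be told apart. Within a library Mt1 exceeded Mt2 by 1.59 to 1.89 times across wild-type libraries and by 1.61 to 1.85 times in Tet1-deficient hippocampus, so the ratio overlapped between genotypes.

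The sequence before the start of Mt1 and Mt2 is shown because both were higher in every Tet1-deficient than in every wild-type library, and that of Sgk1 and Fam107a because they share a motif with Mt1. The windows are from RefSeq on GRCm38.p6, the assembly of mm10, and 27 of the 31 genes matched, with 40 annotated starts. The RefSeq starts differ from the GENCODE gene positions given above. The Mt2 window ends short of the Mt2 position given there, and the Mt1 window runs slightly past that of Mt1. The motif positions and counts therefore hold for the RefSeq starts. The 250 bases before each start were searched on both strands for 4 motifs. TGCACNC and TGCGCNC are forms of the core of the metal response element, where a zinc-sensing factor binds metallothionein genes. GNACANNNTGTNC is the palindromic core of the glucocorticoid response element, read alike on both strands, and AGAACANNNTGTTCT is its stricter form, which always contains it. Capitals mark the matches.
Mt1, chr8:94178839-94179088, plus strand: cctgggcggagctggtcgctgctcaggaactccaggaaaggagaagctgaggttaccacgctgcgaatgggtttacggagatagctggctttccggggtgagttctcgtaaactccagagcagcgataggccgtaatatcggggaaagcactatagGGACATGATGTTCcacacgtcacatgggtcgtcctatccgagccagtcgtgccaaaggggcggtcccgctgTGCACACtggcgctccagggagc
Mt2, chr8:94172368-94172617, plus strand: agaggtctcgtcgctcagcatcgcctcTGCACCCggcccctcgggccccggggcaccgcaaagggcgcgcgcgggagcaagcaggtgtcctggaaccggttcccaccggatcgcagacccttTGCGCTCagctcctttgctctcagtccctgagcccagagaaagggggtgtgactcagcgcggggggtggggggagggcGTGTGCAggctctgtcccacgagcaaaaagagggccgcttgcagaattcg
Sgk1, chr10:21993682-21993734, plus strand: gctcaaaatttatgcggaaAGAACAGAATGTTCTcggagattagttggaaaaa
Fam107a, chr14:8309865-8309917, minus strand: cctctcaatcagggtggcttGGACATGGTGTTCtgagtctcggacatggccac

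The palindrome GNACANNNTGTNC was found before starts of Mt1, Sgk1 and Fam107a, 3 of the 27 matched genes and 4 of their 40 starts, against 0.387% of the 32851 windows in the RefSeq table. Its first base lay 94 bases before the start of Mt1, 188 before that of an Sgk1 start and 118 before that of a Fam107a start. The stricter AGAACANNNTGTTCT was found at Sgk1 alone among the members, and in 3 windows of the table. Of the metal response cores, the window of Mt2 held 3 and that of Mt1 held 1, and windows of other members held them too. Sequence after these starts was not searched, so the counts do not give the number of cores in a whole promoter. TGCACNC was found at 6 of the 40 member starts, those of Mt1, Mt2, Fam107a, Hsd11b1 and Nfkbia, against 10.4% of all windows. TGCGCNC was found at 7 of the 40, those of Mt2, Arrdc3, Crhr1, Ddit4, Glul and Nr3c2, against 12.5% of all windows. In these counts of starts some sites entered more than once. Neighbouring Fam107a starts have overlapping windows with the same palindrome and the same TGCACNC match, and neighbouring Arrdc3 starts share the same TGCGCNC match. A match describes letters and shows no binding, and glucocorticoid response elements also lie outside such short windows. Among the 3 genes with the palindrome the log2 difference between genotypes was 0.31 for Mt1, 0.18 for Fam107a and −0.02 for Sgk1.

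**Figure D4:**
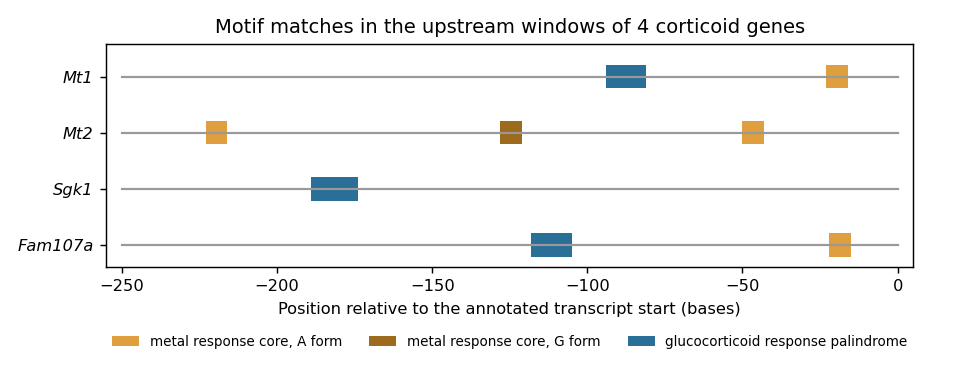
Positions of motif matches in the 250 bases before an annotated start (horizontal axis, bases relative to the start at 0) for Mt1, Mt2, Sgk1 and Fam107a; coloured blocks are matches drawn to scale, and the Sgk1 block covers the stricter form. Within these windows Mt2 has 3 metal response cores, and Mt1 and Fam107a each have 1 core and 1 palindrome.

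Among the metabolic, secreted and glial products, Glul was the most abundant. It encodes glutamine synthetase, an astrocyte enzyme, and measured 865, 784 and 844 FPKM across wild-type libraries and 949, 914 and 864 FPKM across Tet1-deficient ones. The genotypes overlapped by the narrow margin between wild-type replicate 1 and Tet1-deficient replicate 3 (log2 difference 0.13, SE 0.08, unadjusted limma p 0.162). Pdk4, a kinase that restrains the use of glucose by mitochondria, measured 4.93, 4.51 and 3.35 FPKM and 5.24, 4.69 and 5.48 FPKM. Here wild-type replicate 1 lay above Tet1-deficient replicate 2, and wild-type replicate 3 was lowest (log2 difference 0.23, SE 0.14, unadjusted limma p 0.132). The difference was 0.10 without wild-type replicate 3 (unadjusted limma p 0.428) and 0.32 without wild-type replicate 1 (unadjusted limma p 0.0528). Mertk, a receptor for engulfment of cell debris, lay between 16.5 and 20.6 FPKM across wild-type libraries and between 17.4 and 21.1 FPKM across Tet1-deficient ones. Htra1, a secreted protease gene, lay between 84.7 and 96.6 FPKM and between 82.3 and 104 FPKM. The annotation places exons of Teddm2 opposite Glul, of Hdgfl2 opposite Plin4 and of Sgf29 opposite Sult1a1.

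Plin4, Angptl4 and Sult1a1 varied strongly between libraries of 1 genotype. Plin4, which coats lipid droplets, measured 1.58, 8.65 and 6.75 FPKM across wild-type libraries and 3.12, 7.98 and 5.81 FPKM across Tet1-deficient ones. Replicate 1 was lowest in each genotype, and the highest library exceeded the lowest 5.48-fold. Its spread within genotypes was larger than that of 99.5% of tested genes, and its linear means (5.66 ± 3.66 and 5.64 ± 2.43 FPKM, SD, n = 3) and its log2 difference (0.13, SE 0.52) had opposite signs. Angptl4, a secreted inhibitor of lipoprotein lipase, measured 0.920, 1.82 and 2.63 FPKM and 0.995, 1.97 and 1.48 FPKM (log2 difference −0.14, SE 0.25). The sulfotransferase gene Sult1a1 measured 4.81, 7.79 and 9.90 FPKM and 6.99, 9.11 and 7.69 FPKM (log2 difference 0.11, SE 0.23). Lcn2, an iron-carrier protein induced in inflammation, stayed under the level filter, with 0.345, 0.0934 and 1.59 FPKM across wild-type libraries and 0.217, 0.718 and 0.116 FPKM across Tet1-deficient ones (exact two-sided permutation p = 0.7). Its highest libraries, wild-type replicate 3 and Tet1-deficient replicate 2, were also those with most of the choroid plexus transcript Ttr, at 294 and 187 FPKM against 3.44 to 17.7 FPKM elsewhere, and the part of choroid plexus tissue in the Lcn2 values was not tested.

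Replicate 1 of each genotype differed from the other libraries in many members, but about as often as in genes at large. Both replicate 1 libraries were the 2 lowest of the 6 in 11 of the 28 tested members, among them Fkbp5, Zbtb16, Rhob, Plin4 and Mt3, against 35.0% of all tested genes. They were the 2 highest of the 6 in 6 members, among them Nr3c1, Nr3c2, Hsd11b1 and Errfi1, against 28.5% of all tested genes. The mean deviation of the 28 members from their gene averages, on the log2 scale, came to −0.14, 0.04 and −0.03 for the wild-type libraries and to −0.02, 0.09 and 0.06 for the Tet1-deficient ones. Wild-type replicate 2 lay above Tet1-deficient replicate 1, so the genotypes overlapped in this measure, and wild-type replicate 1 was lowest. Without wild-type replicate 1, 18 of 28 members had a log2 difference above 0, with a median of 0.04, and 46.3% of all tested genes did. Between the replicate 1 libraries the difference was above 0 for 22 members and among the other 4 libraries for 18, and 16 members had the same sign in both. By Xist and Ddx3y, wild-type replicate 1 was female and Tet1-deficient replicate 1 male. Sex and genotype therefore cannot be told apart in the difference between the replicate 1 libraries.

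**Figure D5:**
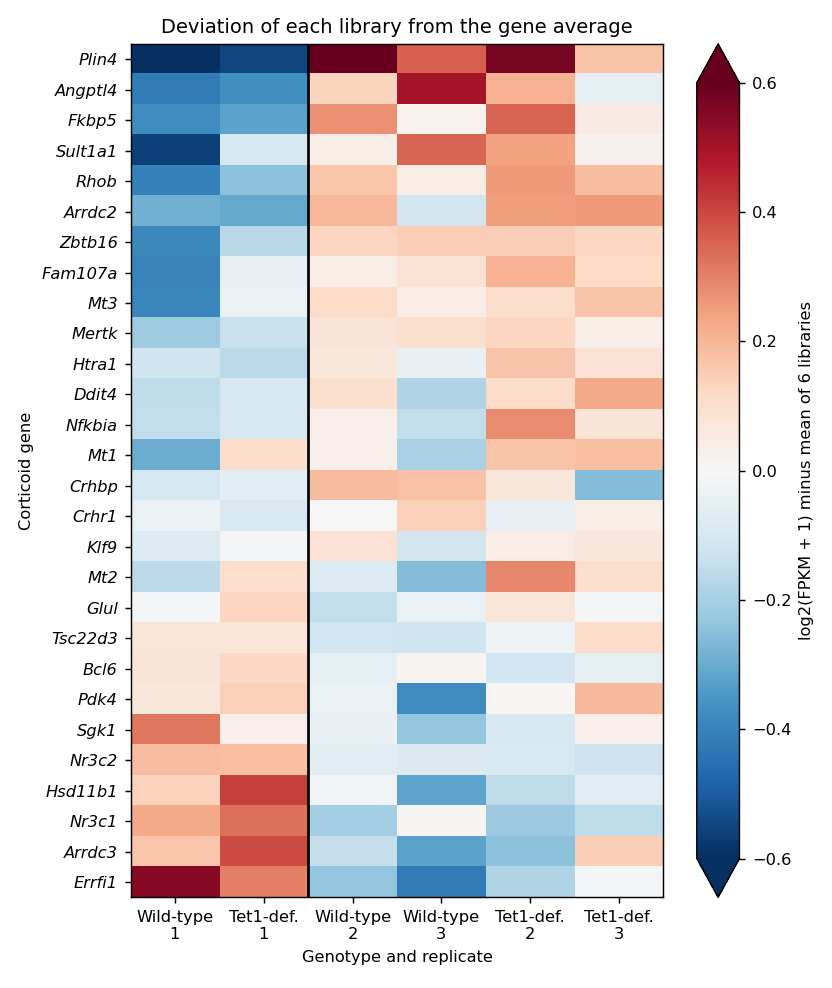
Deviation of each library from the gene's mean over 6 libraries in log2(FPKM + 1) (colour, capped at 0.6 in each direction) for the 28 tested corticoid genes (rows, ordered by the sum of the first 2 columns). The columns left of the line are replicate 1 of each genotype: Plin4, Angptl4 and Fkbp5 are low and Errfi1, Arrdc3 and Nr3c1 high in both, whichever the genotype.

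The wider corticoid pathway was described with 64 further genes, of which 53 were tested. Of these 53, 37 had a log2 difference above 0, against 52.9% of all tested genes. In limma 0 rose and 0 fell, where 0.0319% of all tested genes passed. An unadjusted limma p under 0.05 was reached by 0, against 1.36% of all tested genes. With shares that small, a count of 0 does not set these genes apart. Genotypes were apart for 5 of the 53, against 4.13% of all tested genes. Of 28 other glucocorticoid-induced genes 20 were higher (median 0.07). Txnip, a thioredoxin inhibitor gene, measured 9.998 ± 0.924 and 11.5 ± 0.492 FPKM, Cebpd, a transcription factor gene, 3.30 ± 0.459 and 4.06 ± 0.544 FPKM, and Rasd1, a dexamethasone-induced GTPase gene, 49.7 ± 8.12 and 58.2 ± 0.596 FPKM (SD, n = 3). These 3 did not overlap between genotypes, with unadjusted limma p-values of 0.1005, 0.102 and 0.115. The margins were narrow. The highest wild-type and lowest Tet1-deficient libraries were at 10.8 and 10.9 FPKM for Txnip, 3.62 and 3.66 FPKM for Cebpd, and 56.7 and 57.6 FPKM for Rasd1. The glucose transporter gene Slc2a1 was lower, with 60.9 ± 6.03 and 54.5 ± 9.40 FPKM (SD, n = 3, unadjusted limma p 0.288).

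Of the 9 chaperones and cochaperones that hold the receptor in its hormone-binding state, 8 were higher, with a median log2 difference of 0.04. Of all tested genes 52.9% were higher. Hsp90aa1 measured 493 ± 15.9 and 541 ± 54.1 FPKM (SD, n = 3, unadjusted limma p 0.222). Its genotypes escaped overlap by a narrow margin, between 503.5 FPKM in the highest wild-type and 504.6 FPKM in the lowest Tet1-deficient library. Among 10 receptor coregulators 4 were higher, and Ncoa1, a steroid receptor coactivator gene, measured 27.6 ± 0.201 and 26.3 ± 0.316 FPKM (SD, n = 3) without overlap (unadjusted limma p 0.391). Of 9 genes of steroid synthesis, metabolism and transport 5 were tested. Abcb1a, the efflux pump of the blood-brain barrier that exports steroids, measured 3.46 ± 1.06 and 2.48 ± 0.967 FPKM (SD, n = 3, log2 difference −0.36, unadjusted limma p 0.180). Of 8 stress peptides and their receptors Crh alone was tested, at 1.25 ± 0.374 and 1.29 ± 0.166 FPKM (SD, n = 3).

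Marker lists of other cells were read beside these values, and 0 markers passed the limma threshold, where 0.0319% of all tested genes did. Of 8 neuronal markers 4 were higher, with a median log2 difference of 0.00048. Their sum did not overlap between genotypes, with 3648 to 3815 FPKM across wild-type libraries and 3972 to 4116 FPKM across Tet1-deficient ones. Camk2a, the most abundant of them, was 1142 to 1208 FPKM and 1339 to 1415 FPKM (unadjusted limma p 0.0230). Gad1 did not overlap either but was lower, at 107.0 to 108.2 FPKM and 93.1 to 106.6 FPKM (log2 difference −0.12, unadjusted limma p 0.200). Rbfox3, Tubb3 and Gad2 were lower too, and their genotypes overlapped. All 9 endothelial, 6 of 7 tested pericyte and smooth muscle, and all 8 meningeal fibroblast markers were lower, with medians of −0.22, −0.28 and −0.65. Their sums were 36.0 to 59.8, 42.2 to 74.4 and 42.3 to 108 FPKM across wild-type libraries and 28.6 to 57.9, 37.6 to 54.7 and 41.4 to 62.8 FPKM in Tet1-deficient libraries, and no marker of these lists was at 0. Immediate early genes summed to 463 to 726 FPKM and 420 to 627 FPKM, with 3 of 11 higher. The part of any of these cells or of neuronal activity in the corticoid gene values was not tested.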

How the data were processed

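RNA was measured in 6 libraries of whole hippocampus, 3 of each genotype; the design text counts 3 mice per genotype. The authors deposited gene-level FPKM values with a column for each library. TopHat2 2.0.9 and Cufflinks 2.1.1 were used with mm10, per the submitters' processing notes. For the annotation, the strand setting and multiply mapped reads, the choices were not given in the sources used here. Read depth is unknown, so precision rests on the 3 libraries per genotype. Genes whose mean reached 1 FPKM were tested on log2(FPKM + 1), which understates changes of low genes, with limma 3.58.1 (intensity trend, Benjamini-Hochberg) in R 4.3.3, checked on simulated data. Genes below the filter have the log2 difference of the same model on all genes above 0 and an exact permutation test. Positions and transcripts are from GENCODE M21, compared with blastn 2.17.0. Genotypes came from the labels; replicate numbers are names in sample order.

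All 31 members are named; of each pathway list up to 4 genes with the smallest p are. Members and lists were chosen with earlier results of these data known. Alternatives were another pseudocount, no filter, other scalings, no trend, library weights, a threshold of 0.1 and leaving out each library. The split of libraries and the fit to 4 libraries were added after seeing the data.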

Additional observations from a re-analysis of the deposited data

How the results depend on the processing

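No alternative called any of the 28 members: the count past the threshold stayed at 0 in each, and the smallest adjusted limma p among members was 0.150 (Crhbp, with library weights). The count of members with a log2 difference above 0 stayed between 18 and 23 in all alternatives, and with 1 library left out the median ran from 0.04 to 0.15. Scalings moved the median of all genes by under 0.1. The count of all genes past the threshold was 4, and it became 8 with the library split as a term, 59 under library weights, 13 in the 4 libraries, and 0 to 6 with 1 library left out (0 when wild-type replicate 3 or replicate 2 of Tet1-deficient hippocampus was left out, 1 when wild-type replicate 2 or replicate 3 of Tet1-deficient hippocampus was). Without the level filter the unadjusted limma p of Mt1 was 0.0566. With library weights 8 members had an unadjusted limma p under 0.05, against 9.83% of all genes, and with the split as a term 4 did, against 6.77%.

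The sign of the log2 difference turned in some alternatives for the members below, and the cause was not tested. With library weights the log2 difference was −0.091 for Fkbp5, 0.11 for Sgk1, −0.29 for Plin4, −0.073 for Sult1a1 and −0.028 for Mertk. In the 4 libraries it was 0.0090 for Crhr2, 0.11 for Sgk1, −0.0029 for Zbtb16, −0.15 for Plin4, −0.063 for Sult1a1 and −0.0049 for Mertk. With 1 library left out it ran from −0.20 to 0.081 for Nr3c1, −0.12 to 0.063 for Nr3c2, −0.043 to 0.24 for Hsd11b1, −0.030 to 0.000058 for Hsd11b2, −0.12 to 0.22 for Fkbp5, −0.15 to 0.13 for Sgk1, −0.10 to 0.17 for Zbtb16, −0.12 to 0.37 for Errfi1, −0.10 to 0.021 for Bcl6 and −0.040 to 0.29 for Rhob. The same ranges were −0.00019 to 0.25 for Mt3, −0.45 to 0.50 for Plin4, −0.39 to 0.074 for Angptl4, −0.14 to 0.31 for Sult1a1, −0.49 to 0.13 for Lcn2, −0.077 to 0.095 for Mertk and −0.0037 to 0.16 for Htra1. The other members kept their sign with 1 library left out, and their ranges were −0.27 to −0.084 for Crhbp, −0.11 to −0.014 for Crhr1, −0.12 to −0.017 for Crhr2, 0.073 to 0.17 for Tsc22d3, 0.032 to 0.13 for Klf9, 0.081 to 0.27 for Nfkbia, 0.085 to 0.25 for Ddit4, 0.029 to 0.27 for Fam107a and 0.088 to 0.17 for Glul, beside those of Mt1, Mt2, Arrdc2, Arrdc3 and Pdk4 given above. No paired analysis was possible because the replicate numbers are names in sample order and tie no wild-type library to a Tet1-deficient one.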
